A study of Rattus norvegicus with 4 samples.

Results

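The 46 mid-size families of small RNA sequences described here were groups of sequences with shared stretches, and 40 of them were provisionally named after longer noncoding RNAs. They were formed by joining, step by step, all sequences of the deposited raw table that shared any identical stretch of 20 bases, and by keeping families of 5 to 19 sequences. The 10 families that the rule excluded by name were left out. The families held 459 sequences whose names begin with novel_, of 3003 such names and 3129 sequences in the table, and 307 families were formed in all. By provisional name, 28S rRNA gave 15 families, 18S rRNA 8, 5S rRNA 2, tRNA 3, mitochondrial RNA 3, Y1 RNA 2, 4.5SH RNA 2, RNA related to short interspersed elements 2, and 7SL RNA, U3 snoRNA and U4 snRNA 1 each. The other 6 families had no name. The names were recognised from general knowledge once the sequences had been seen and were not checked against a reference.

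Y RNAs bind the Ro60 protein and are cut into stable fragments in many tissues, and tRNAs are cut under stress near the anticodon into 5' and 3' parts. 7SL RNA is the RNA of the signal recognition particle, U3 guides the processing of ribosomal RNA and U4 is a part of the spliceosome. BC1 RNA is a neuronal RNA of rodents from which the ID repeats of the rat genome derive, B2 elements are a separate rodent repeat, and 4.5SH RNA is a short rodent RNA of the nucleus. Piwil2 is a PIWI protein that binds piRNAs in the germline, and fragments of abundant RNAs are common in any library made by RNA immunoprecipitation (RIP).

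Small RNA was sequenced after RIP from the hippocampal CA1 region of male Wistar rats aged 7 to 8 weeks. The libraries carry the labels Sham, tGCI26h (26 h, where tGCI stands for transient global cerebral ischemia), HPC0h (0 h, with HPC not spelled out) and IgG, the control precipitation. The series concerns Piwil2, while the animals behind the IgG library are not stated. Although the design text speaks of 3 replicates, each group had 1 library here, and pooling was not stated. The IgG column carried its library's own name, but the columns S, R26 and P0 were matched to Sham, tGCI26h and HPC0h only through a letter or a time. With no replicates, every difference below is between 2 libraries, no test was possible, and intervals are exact 95% intervals (Clopper-Pearson) that cover counting error only.

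The raw table summed to 159215 counts in Sham, 222511 in tGCI26h, 830634 in HPC0h, with 668857 in IgG, so Sham was the shallowest. Counts were divided by these sums to give CPM, the count in each 1e+06 counts. The families held 5.23% of the summed counts in Sham (5.12 to 5.34), then 6.29% in tGCI26h (6.19 to 6.39), 3.87% in HPC0h (3.83 to 3.91), with 4.88% in IgG (4.83 to 4.93). Of the 459 sequences 257 were listed in Sham, 319 in tGCI26h, 407 in HPC0h, with 397 in IgG, and 217 were listed in all 4 libraries.

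Counts of nested sequences were not separate. Where a member lay whole within a longer member, the longer had at least the count of the shorter in 2833 of 2833 pairs with a count, taken over the 4 libraries. Where the shorter overlapped the longer without lying within it, this held in 2738 of 3927 pairs (69.7%). Over all sequences of the table it held in 41261 of 41261 nested pairs and in 82.6% of 194017 overlapping pairs. A read may therefore count towards every longer sequence that holds it, but the assignment of reads is not stated. Of the 459 sequences 298 lay within a longer listed sequence and 161 did not. A family sum is thus a sum of overlapping counts, its interval is too narrow, and the count of the leading member, which is the member with the most counts, is given beside it. The shares of a family's counts by end repeat nested counts too. Restricting both the families and the library totals to sequences not held within a longer one, a choice made after the data were seen, gave numbers of higher and lower families within 1.5 times of those below in all 6 comparisons.

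The leading sequences of the described families outside cytoplasmic rRNA are shown first because the fragment's place in its RNA is what sets the families apart. They are written 5' to 3' as deposited, and capitals mark the stretch that the most members of the family hold. The Y1 RNA 5' part, the tRNA-His 5' part and the tRNA-Glu 3' part come first, followed by mitochondrial 16S rRNA, the mitochondrial tRNA-Gln 3' part, the inner and 3' parts of 4.5SH RNA, the BC1/ID-like and B2-like RNAs, 7SL RNA, the U3 snoRNA 3' part and the U4 snRNA 3' part.
novel_14710_x137: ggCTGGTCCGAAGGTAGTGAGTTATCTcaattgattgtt
novel_12093_x163: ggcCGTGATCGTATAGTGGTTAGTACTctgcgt
novel_6674_x282: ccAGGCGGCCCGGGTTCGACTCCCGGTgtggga
novel_994_x1625: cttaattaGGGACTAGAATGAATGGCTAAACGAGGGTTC
novel_3814_x485: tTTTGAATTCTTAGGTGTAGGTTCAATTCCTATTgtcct
novel_3861_x480: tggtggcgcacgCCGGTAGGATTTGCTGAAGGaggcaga
novel_21037_x102: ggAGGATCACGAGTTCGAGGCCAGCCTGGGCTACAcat
novel_11388_x172: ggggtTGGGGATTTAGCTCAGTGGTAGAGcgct
novel_9037_x213: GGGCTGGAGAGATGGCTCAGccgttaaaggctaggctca
novel_13018_x153: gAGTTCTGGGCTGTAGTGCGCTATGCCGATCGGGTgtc
novel_1285_x1311: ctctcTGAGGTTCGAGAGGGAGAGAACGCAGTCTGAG
novel_2461_x736: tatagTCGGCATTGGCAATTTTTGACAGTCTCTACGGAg

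The leading sequences from 5S, 18S and 28S rRNA are shown because they include both uneven and even families. The first is from 5S rRNA, the next 5 are from 18S rRNA and the other 7 are from 28S rRNA.
novel_10409_x186: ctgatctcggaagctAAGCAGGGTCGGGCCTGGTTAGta
novel_3993_x464: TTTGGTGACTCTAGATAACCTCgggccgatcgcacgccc
novel_10145_x191: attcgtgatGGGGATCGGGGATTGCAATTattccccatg
novel_15318_x132: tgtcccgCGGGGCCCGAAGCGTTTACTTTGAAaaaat
novel_7775_x246: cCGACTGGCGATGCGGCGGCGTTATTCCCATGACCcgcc
novel_8551_x225: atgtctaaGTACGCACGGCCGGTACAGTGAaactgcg
novel_20976_x102: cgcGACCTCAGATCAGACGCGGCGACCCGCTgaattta
novel_17224_x119: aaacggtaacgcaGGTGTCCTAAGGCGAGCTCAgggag
novel_2514_x722: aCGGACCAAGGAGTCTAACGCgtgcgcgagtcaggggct
novel_8342_x230: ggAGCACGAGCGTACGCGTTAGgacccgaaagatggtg
novel_10986_x177: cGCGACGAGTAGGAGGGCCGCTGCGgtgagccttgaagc
novel_18151_x114: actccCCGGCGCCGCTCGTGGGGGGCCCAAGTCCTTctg
novel_2601_x696: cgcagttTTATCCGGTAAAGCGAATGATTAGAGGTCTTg

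Higher and lower, as calls, mean a CPM ratio of 2 or more in that direction with an interval that leaves out 1, for a family or sequence that reached 10 counts in either library. In tGCI26h over Sham, 15 of 44 measured families were higher and 4 were lower, against 28.4% higher and 13.0% lower among all 169 measured families of the table. In HPC0h over tGCI26h, 4 of 45 were higher and 15 lower, against 11.1% and 40.0% of 190. In HPC0h over Sham, 9 of 44 were higher and 9 lower, against 15.0% and 30.5% of 187. Over the IgG control, 8 of 44 were higher and 9 lower in Sham (25.3% and 18.4% of 190 in the table), 12 of 45 were higher and 6 were lower in tGCI26h (33.2% and 15.1% of 199), and 6 of 46 against 4 in HPC0h (13.8% and 20.2% of 203). The comparisons share libraries, so they are not independent of each other.

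The median log2 ratio of the measured families was 0.36 in tGCI26h over Sham (0.30 over all families), -0.37 in HPC0h over tGCI26h (-0.65) and -0.06 in HPC0h over Sham (-0.43). Sequence by sequence, 65 of 224 measured members were higher and 43 lower in tGCI26h over Sham, against 27.2% and 13.9% of all measured sequences. For HPC0h over tGCI26h the numbers were 48 and 75 of 293 (21.0% and 21.0%), and for HPC0h over Sham 65 and 71 of 295 (25.4% and 15.9%). Over IgG they were 52 and 68 of 293 in Sham (12.5% and 28.6%), 57 and 50 of 292 in tGCI26h (16.6% and 19.5%), and 48 and 71 of 321 in HPC0h (17.8% and 17.1%). Members of a family overlap, so these sequences are not independent of each other.

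The CPM scale moves with the abundant 28S fragments. The family of the 28S 5' end sequence novel_88_x12235 is not among the 46, yet leaving it out of the library totals raised every log2 ratio of HPC0h over tGCI26h by 0.54 and of HPC0h over Sham by 0.51. The 15 families lower in HPC0h over tGCI26h then became 6 and the 4 higher became 9. Those that were still lower on both scales were mitochondrial 16S rRNA led by novel_994_x1625, mitochondrial tRNA-Gln, the tRNA-Glu 3' part, U4 snRNA, novel_18422_x113 and novel_19185_x109. Which scale reflects the RNA recovered was not tested.

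Fragments of the 5' part of Y1 RNA had the highest summed level of the 46 families in each library, in sums that repeat the counts of nested sequences. The order of the families depended on this. With only sequences not held within a longer one, the 18S family of novel_3993_x464 had 2519 counts in HPC0h and 2864 in IgG, against 1502 and 1458 for Y1, and the mitochondrial tRNA-Gln family of novel_3814_x485 had 1108 in tGCI26h against 1049. In the normalized table that 18S family was also the higher in IgG, at 6238 against 5949. The 14 members summed to 11745 CPM in Sham, 12049 in tGCI26h, 4823 in HPC0h, with 6394 in IgG. The leading 39 nt member novel_14710_x137 was counted 878, 1049, 1502 and 1458 times, which is 5515, 4714, 1808 and 2180 CPM. Sham and tGCI26h were thus high and HPC0h and IgG low. Every other member of the family lay within the leading sequence, so its count alone describes the family. It was 2.53-fold higher in Sham relative to IgG (95% interval 2.32 to 2.75) and 2.16-fold higher in tGCI26h (2.00 to 2.34), whereas HPC0h had 0.83 of the IgG level (0.771 to 0.892). It was 2.61-fold lower in HPC0h relative to tGCI26h (2.41 to 2.82) and 3.05-fold lower than in Sham (2.80 to 3.32). For the family sum, the fall in HPC0h from tGCI26h was 2.50-fold, or 1.72-fold without the 28S 5' end family in the totals, which ends that call.

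The Y1 5' members form a ladder with a fixed 5' end and 12 different 3' ends. Members that began at base 1 held 99.8% of the family's summed counts, which repeat nested counts and may include reads that start later. Among these a shorter one never had more counts than a longer one. The same held for every nested pair of the raw table, so this order is not a trait of Y1. In Sham the 37 nt member had 290 counts, the 36 nt member 284, the 35 nt member 86, the 32 nt member 65, the 31 nt member 27 and the 27 nt member 21. The steepest steps, from 39 to 37 nt, from 36 to 35 nt and from 32 to 31 nt, were present in all 4 libraries. The 3' part of Y1 RNA formed its own family of 12 members with 502 CPM in Sham, 764 in tGCI26h, 331 in HPC0h, with 483 in IgG. It was 2.31-fold lower in HPC0h relative to tGCI26h (1.90 to 2.80), and 1.59-fold once the 28S 5' end family left the totals. The sum of the 5' part exceeded that of the 3' part 23.4-fold in Sham (18.7 to 29.6), 15.8-fold in tGCI26h (13.5 to 18.5), 14.6-fold in HPC0h (12.9 to 16.5), with 13.2-fold in IgG (11.8 to 14.9). With only sequences not held within a longer one these ratios fell to 12.7 (9.95 to 16.5), 6.68 (5.65 to 7.95), 6.23 (5.44 to 7.17) and 7.01 (6.06 to 8.15). They compare sequences within a library and do not depend on the totals.

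The members of the Y1 3' family did not move together. Its leading member novel_10422_x186 had 40 counts in Sham, 65 in tGCI26h, 56 in HPC0h, with 157 in IgG. The member novel_20725_x103, shifted 12 bases upstream and chosen here after its values were seen, had 13 counts in Sham and 82 in HPC0h and was not listed in tGCI26h or IgG. The member novel_16776_x122, shifted 7 bases upstream and chosen in the same way, had 25 counts in tGCI26h, 48 in HPC0h, with 5 in IgG and was not listed in Sham. Overlapping fragments of 1 RNA were therefore listed in different sets of libraries.

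Fragments of tRNA-His, the tRNA that carries histidine, had the widest spread among the tRNA families and were high in Sham alone. The 8 members summed to 5929 CPM in Sham, 849 in tGCI26h, 863 in HPC0h, with 1162 in IgG. The leading member novel_12093_x163, 33 nt from the 5' end, was counted 722, 114, 460 and 436 times, which is 4535, 512, 554 and 652 CPM. The other 7 members lay within it. It was 6.96-fold higher in Sham relative to IgG (6.17 to 7.85), 8.85-fold lower in tGCI26h relative to Sham (7.26 to 10.9) and 8.19-fold lower in HPC0h relative to Sham (7.28 to 9.22). In tGCI26h over IgG the ratio was 0.786 (0.634 to 0.968) and in HPC0h over IgG 0.850 (0.744 to 0.971). The family fell in tGCI26h and HPC0h from Sham under each of the 3 other scalings as well. Since Sham is a single library, whether the difference lies with the condition or with that library cannot be told apart.

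The tRNA-Glu families were fragments of the tRNA for glutamate. Like all families under the joining rule, they shared no 20-base stretch with any other family. The 5' part, led by novel_1297_x1295, had 11 members and summed to 1759 CPM in Sham, 1258 in tGCI26h, 507 in HPC0h, with 864 in IgG. It was 3.47-fold lower in HPC0h relative to Sham (2.97 to 4.05) and 2.48-fold lower than in tGCI26h (2.13 to 2.90), the latter 1.71-fold once the 28S 5' end family left the totals. The sum hid unlike members. The leading 36 nt member was counted 65, 125, 154 and 234 times, so that it was highest in tGCI26h at 562 CPM. The 37 nt member novel_18987_x110, which starts at the same base but does not hold it, was counted 72, 57, 26 and 81 times and was 14.4-fold lower in HPC0h relative to Sham (9.11 to 23.6). The family held 3 positions at which its members carried different bases.

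The 3' part of tRNA-Glu, led by novel_6674_x282, summed to 364 CPM in Sham, 422 in tGCI26h, 120 in HPC0h, with 97.2 in IgG over 7 members. Sham and tGCI26h were high, and HPC0h and IgG low. The leading member was counted 30, 27, 23 and 23 times. The sum was 3.75-fold higher in Sham relative to IgG (2.58 to 5.42) and 4.35-fold higher in tGCI26h relative to IgG (3.13 to 6.06), and it was 3.51-fold lower in HPC0h relative to tGCI26h (2.62 to 4.70). The 3' end was fixed, with 98.1% of the summed counts ending at base 33. The 5' part exceeded the 3' part 4.83-fold in Sham (3.63 to 6.52), 2.98-fold in tGCI26h (2.35 to 3.80), 4.21-fold in HPC0h (3.38 to 5.29), with 8.89-fold in IgG (6.87 to 11.7). With only sequences not held within a longer one it was 3.36 (2.39 to 4.79), 3.22 (2.39 to 4.41), 3.66 (2.72 to 4.98) and 8.94 (6.33 to 13). Sham, tGCI26h and HPC0h then lay close together. All 3 tRNA families were higher in Sham than in IgG and lower in HPC0h than in Sham, and 1 was higher in tGCI26h than in IgG. Among all measured families these shares were 25.3%, 30.5% and 33.2%. For the tRNA-Glu 5' part the ratio of Sham over IgG was 2.04, and it was 1.87 with only sequences not held within a longer one.

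Of the 3 families of mitochondrial RNA, 2 were higher in tGCI26h than in HPC0h, and the third, that of novel_12146_x162, was not called between them. Among all measured families 40.0% were lower in HPC0h than in tGCI26h. The mitochondrial tRNA-Gln 3' part had 13 members that summed to 2311 CPM in Sham, 5110 in tGCI26h, 927 in HPC0h, with 1326 in IgG. The leading member novel_3814_x485 was counted 99, 536, 337 and 388 times, which is 622, 2409, 406 and 580 CPM. It was 3.87-fold higher in tGCI26h relative to Sham (3.12 to 4.85), 4.15-fold higher than in IgG (3.64 to 4.74) and 5.94-fold lower in HPC0h relative to tGCI26h (5.17 to 6.82). For the sum, tGCI26h over Sham was 2.21, which became 1.92 with TMM factors and so ended the call.

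The tRNA-Gln members that differ by a few bases in their ends did not share this pattern. The member novel_1504_x1146, shifted 1 base upstream, was counted 135, 517, 330 and 325 times and behaved like the leading one. The member novel_2803_x649, shifted 1 base downstream, was counted 61, 47, 41 and 75 times, and its ratio of tGCI26h over Sham was 0.551 (0.369 to 0.820). The member novel_4321_x431, which ends 3 bases before the leading one, was counted 40, 8, 5 and 8 times. It was 6.99-fold lower in tGCI26h relative to Sham (3.23 to 17.3) and 21.0-fold higher in Sham relative to IgG (9.70 to 52.0). The rise of the family in tGCI26h thus rested on 2 of its 4 sequences that lay in no longer one.

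The mitochondrial 16S rRNA, the RNA of the large subunit of the mitochondrial ribosome, gave 2 families. That of novel_994_x1625 had a fixed 3' end, with 90.2% of its summed counts ending at base 39, and 10 different 5' ends. Its leading member was counted 72, 233, 241 and 668 times, or 452, 1047, 290 and 999 CPM, so that tGCI26h and IgG were high and HPC0h low. It was 2.32-fold higher in tGCI26h relative to Sham (1.77 to 3.06), 3.61-fold lower in HPC0h relative to tGCI26h (3.00 to 4.34) and 3.44-fold lower in HPC0h relative to IgG (2.97 to 4.00). For the family sum, the ratio of tGCI26h over Sham was 1.799 (1.545 to 2.101), which was not called. The family of novel_12146_x162 had a fixed 5' end instead, with 94.6% of its counts starting at base 1, and all other members lay within the leading one. Here the longest sequence was counted 61, 78, 403 and 149 times, or 383, 350, 485 and 223 CPM, and was 2.18-fold higher in HPC0h relative to IgG (1.80 to 2.65). The first family exceeded the second 1.81-fold in Sham (1.46 to 2.26), 5.42-fold in tGCI26h (4.41 to 6.70), 1.13-fold in HPC0h (1.02 to 1.26), with 6.95-fold in IgG (6.08 to 7.97). With only sequences not held within a longer one it was 1.79 (1.29 to 2.49), 3.65 (2.84 to 4.76), 0.767 (0.659 to 0.892) and 5.54 (4.65 to 6.65), so the direction in HPC0h turned.

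The 4.5SH RNA gave an inner part and a 3' part. The inner part, led by novel_3861_x480, had 16 members with 1218 CPM in Sham, 1353 in tGCI26h, 1472 in HPC0h, with 1975 in IgG and was called in none of the 6 comparisons. The leading one was counted 48, 115, 367 and 340 times. The 3' part, led by novel_21037_x102, had 12 members with 766, 368, 548 and 972 CPM, and its leading member was counted 78, 42, 198 and 375 times. That member was 2.60-fold lower in tGCI26h relative to Sham (1.76 to 3.87) and 2.97-fold lower than in IgG (2.16 to 4.19). The inner part exceeded the 3' part 1.59-fold in Sham (1.26 to 2.01), 3.67-fold in tGCI26h (2.87 to 4.75), 2.69-fold in HPC0h (2.41 to 3.00), with 2.03-fold in IgG (1.85 to 2.24). The intervals of Sham and tGCI26h did not overlap.

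Both families of repeat-related RNA were higher in tGCI26h, relative to Sham as well as to IgG. Among all measured families 28.4% and 33.2% were higher in these comparisons. The BC1/ID-like family, led by novel_11388_x172, had 6 members that summed to 264 CPM in Sham, 796 in tGCI26h, 438 in HPC0h, with 233 in IgG. The leading sequence was counted 20, 61, 125 and 59 times. The sum was 3.02-fold higher in tGCI26h relative to Sham (2.14 to 4.33) and 3.41-fold higher than in IgG (2.73 to 4.26), and all 4 measured members were higher in both comparisons. All 6 members shared 20 bases with the reverse complement of rno_piR_009659 and of rno_piR_009660, and no other member of the 46 families had such a match in the table. Of 33469 RefSeq promoter windows of 300 bases (GRCr8), 230 (0.687%) held a 20-base stretch of this family on either strand.

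The B2-like family, led by novel_9037_x213, had 6 members with 81.7 CPM in Sham, 737 in tGCI26h, 722 in HPC0h, with 220 in IgG. The leading sequence had 13, 108, 191 and 107 counts. It was 5.94-fold higher in tGCI26h relative to Sham (3.33 to 11.5) and 3.03-fold higher than in IgG (2.30 to 4.00). The member novel_15116_x134, chosen after its values were seen, was counted 37 times in tGCI26h, 218 in HPC0h, with 10 in IgG and was not listed in Sham. It was 17.6-fold higher in HPC0h relative to IgG (9.37 to 37.1), where the leading member had a ratio of 1.44 (1.13 to 1.84). The members of this family differed at 10 positions. A 20-base stretch of the family lay in 109 of the promoter windows (0.326%). Of the other 44 families, 4 had such a match, each in 1 or 2 windows.

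The 7SL family had 4 members among 6 joined sequences. The leading member novel_13018_x153, which holds the others, was counted 75, 76, 195 and 128 times, which is 471 CPM in Sham, 342 in tGCI26h, 235 in HPC0h, with 191 in IgG. It was 2.46-fold higher in Sham relative to IgG (1.83 to 3.30). Its ratio of tGCI26h over Sham was 0.725 (0.520 to 1.01), although the family sum was called 2.06-fold lower (1.57 to 2.71). The call of the sum rested on nested members, of which novel_19477_x108 and novel_11332_x172 were not listed in tGCI26h.

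The U3 snoRNA and U4 snRNA 3' parts were the only 2 families among the 46 that were not listed in IgG at all. They were also among the rarest. The leading U3 member novel_1285_x1311 was counted 2 times in Sham, 2 in tGCI26h and 28 in HPC0h. Against the floor of 3 counts that an unlisted value allows, the leading member was at least 7.52-fold higher in HPC0h relative to IgG, where the exact 95% limit was 5.72-fold. The U3 sum was also called higher than IgG in tGCI26h, but the leading member had only 2 of those 10 summed counts. The leading U4 member novel_2461_x736 was counted 5 times in Sham, 17 in tGCI26h and 2 in HPC0h, and all other members lay within it. It was at least 17.0-fold higher in tGCI26h relative to IgG (exact 95% limit 12.4) and at least 7.00-fold higher in Sham (3.85), with no fold given for the 2 counts in HPC0h. Of the 46 families, U4 alone had a sum called higher than IgG in Sham, tGCI26h and HPC0h. How many families of the whole table did so was not counted. The U4 calls in Sham and HPC0h rested on 5 and 2 counts of the leading member that nested members repeat. With only sequences not held within a longer one, both fell under the minimum of 10 counts. Low counts do not show that these RNAs were absent from IgG, where the authors' normalized table lists a value of 1 for each leading member.

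The 5S rRNA, the small RNA of the large ribosomal subunit, gave a family that was high in Sham and a family that was even. The family of novel_10409_x186 had 12 members with 1388 CPM in Sham, 458 in tGCI26h, 347 in HPC0h, with 447 in IgG. Its leading member was counted 50, 19, 102 and 97 times and was 3.68-fold lower in tGCI26h relative to Sham (2.13 to 6.61) and 2.17-fold higher in Sham relative to IgG (1.51 to 3.08). In the same direction, the sum was 3.10-fold higher in Sham relative to IgG (2.60 to 3.71) and 4.00-fold lower in HPC0h relative to Sham (3.34 to 4.79). The family of novel_7451_x256 summed to 1551, 1128, 1193 and 969 CPM over 6 members and was called in none of the 6 comparisons. The even family exceeded the other 1.12-fold in Sham (0.928 to 1.35), 2.46-fold in tGCI26h (1.95 to 3.13), 3.44-fold in HPC0h (3.02 to 3.94), with 2.17-fold in IgG (1.89 to 2.49).

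Most of the 18S rRNA families, from the RNA of the small ribosomal subunit, were even between libraries. The 8 families together held 9786 CPM in Sham, 12193 in tGCI26h, 10484 in HPC0h, with 12666 in IgG. In tGCI26h over Sham 2 were higher and none was lower (28.4% and 13.0% of all measured families). In HPC0h over tGCI26h 1 was higher and none was lower (11.1% and 40.0%). The most abundant was that of novel_3993_x464, with 17 members spread over 80 bases and 4409, 5968, 4352 and 6372 CPM. The leading 39 nt sequence was counted 317, 338, 1041 and 892 times and was called in no comparison. Its member novel_18343_x113, which overlaps the leading one by 18 bases and was chosen after its values were seen, was counted 10, 62, 296 and 459 times and was 10.9-fold lower in Sham relative to IgG (5.89 to 22.9). The family of novel_10145_x191 was even, with leading counts of 108, 139, 529 and 577, or 678, 625, 637 and 863 CPM.

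The 18S family of novel_15318_x132 was 2.48-fold higher in tGCI26h relative to Sham (2.02 to 3.07) and 2.35-fold higher in HPC0h relative to Sham (1.95 to 2.86). In the same order its leading member had 38, 115, 409 and 228 counts. The family of novel_8551_x225, with a fixed 3' end that held 96.7% of its counts, had the lowest 18S level in Sham. Only 2 counts of its leading member were in Sham, beside 29 in tGCI26h, 160 in HPC0h, with 148 in IgG. The sum was 10.8-fold lower in Sham relative to IgG (4.89 to 29.7) and 7.28-fold higher in tGCI26h relative to Sham (3.16 to 20.6). In the authors' normalized table these differences were 1.64-fold and 1.32-fold, and HPC0h over Sham was 1.01 in place of 6.81, so all 3 calls ended. In the family of novel_7775_x246 the leading member, which holds the others, was counted 15, 8, 153 and 184 times and was 5.12-fold higher in HPC0h relative to tGCI26h (2.54 to 12.1) and 7.65-fold lower in tGCI26h relative to IgG (3.80 to 17.99). Its sum was called lower than IgG in Sham too, with a ratio of 0.478 (0.321 to 0.691). In the normalized table the family ratio was 1.03 for HPC0h over tGCI26h in place of 2.11, 0.891 for tGCI26h over IgG in place of 0.385 and 0.744 for Sham over IgG, and none was called.

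The other 18S families, those of novel_2804_x648, novel_6066_x308 and novel_10717_x181, were called in no comparison of their sums. The sum of the novel_6066_x308 family, 1124, 665, 579 and 797 CPM, covered a member that was nearly missing from tGCI26h. This leading member, chosen after its values were seen, was counted 105 times in Sham, 2 in tGCI26h, 165 in HPC0h, with 138 in IgG. It was 73.4-fold lower in tGCI26h relative to Sham (19.8 to 614) and 23.0-fold lower than in IgG (6.24 to 191). Its neighbour novel_10893_x179, which starts 5 bases upstream and ends 6 bases earlier, was counted 39 times in tGCI26h against 16 in Sham, a ratio of 1.74 (0.953 to 3.34) that was not called.

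The 28S rRNA families, from the RNA of the large ribosomal subunit, were the largest class and were lower in Sham as a class. Together the 15 families held 9402 CPM in Sham, 15109 in tGCI26h, 11928 in HPC0h, with 14420 in IgG. In tGCI26h over Sham 6 were higher and none was lower (28.4% and 13.0% of all measured families). Over IgG none was higher and 3 were lower in Sham (25.3% and 18.4%). In HPC0h over tGCI26h 3 were higher and 5 lower (11.1% and 40.0%). On totals without the 28S 5' end family none of those 5 was called lower, their ratios lying between 0.574 and 0.726.

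The 28S family of novel_2514_x722 was high in IgG. It had 13 members with 704 CPM in Sham, 1016 in tGCI26h, 401 in HPC0h, with 2042 in IgG. Its leading member was counted 74, 115, 47 and 955 times, which is 465, 517, 56.6 and 1428 CPM. It was 3.07-fold lower in Sham relative to IgG (2.42 to 3.95), 2.76-fold lower in tGCI26h (2.27 to 3.38) and, most of all, 25.2-fold lower in HPC0h (18.8 to 34.6). Its member novel_18226_x114, shifted 3 bases upstream at the 5' end and at the 3' end, was counted 7, 45, 147 and 139 times, or 44.0, 202, 177 and 208 CPM. A shift of 3 bases thus separated a fragment that was low in HPC0h from a fragment at the IgG level there.

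The family of novel_18151_x114 was nearly missing from Sham in the raw counts. Its 12 members summed to 31.4 CPM in Sham, 386 in tGCI26h, 314 in HPC0h, with 444 in IgG, and its leading member was not listed in Sham and was counted 23, 69 and 82 times in the others. The sum was 14.1-fold lower in Sham relative to IgG (5.99 to 43.9) and 12.3-fold higher in tGCI26h relative to Sham (5.07 to 38.9). The Sham counts came from the 28 nt member novel_16850_x121 alone, counted 5 times there. In the normalized table the family had 85 in Sham. It was then 4.9-fold lower in Sham relative to IgG and 4.68-fold higher in tGCI26h relative to Sham, both still called. The family of novel_2601_x696 was listed in neither Sham nor tGCI26h, and its leading member was counted 29 times in HPC0h, with 3 in IgG. Its sum exceeded IgG 9.50-fold in HPC0h (3.85 to 30.3). From the 31 counts in HPC0h of its sequences not held within a longer one, it was at least 2.77-fold higher there relative to tGCI26h against the floor of 3 counts (exact 95% limit 2.12), and at least 1.98-fold relative to Sham (1.52).

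The families of novel_8342_x230 and novel_10986_x177 were higher in HPC0h than in tGCI26h. In the normalized table the ratio of the first was 1.95 in place of 3.10, not called. The leading member of the first was counted 17, 50, 431 and 250 times, or 107, 225, 519 and 374 CPM, and was 4.86-fold higher in HPC0h relative to Sham (3.00 to 8.42). Its member novel_5323_x351, which starts 8 bases upstream, was counted 41, 3, 103 and 70 times and was 19.1-fold lower in tGCI26h relative to Sham (6.09 to 96.4). The sum of the second was 2.32-fold higher in HPC0h relative to tGCI26h (1.75 to 3.14) and 2.64-fold lower in tGCI26h relative to IgG (1.99 to 3.58). Its leading member was counted 45, 54, 355 and 202 times. For that member alone the ratio was 1.76 in HPC0h over tGCI26h and 0.804 in tGCI26h over IgG, neither called. The family of novel_17224_x119 was even in its sum and uneven within. Its leading member was counted 57, 143, 460 and 343 times, whereas novel_8075_x238 from the 3' side of the family was counted 68, 36, 97 and 260 times and was 2.64-fold lower in tGCI26h relative to Sham (1.74 to 4.07).

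The other 28S families were those of novel_10482_x185, novel_17548_x117, novel_7754_x246, novel_14487_x139, novel_11687_x168, novel_20428_x105, novel_18167_x114 and novel_7935_x242. The first 4 were higher in tGCI26h than in Sham, by 2.11-fold to 2.62-fold, and lower in HPC0h than in tGCI26h. For novel_14487_x139 the rise was 1.83-fold with TMM factors and 1.91-fold with only sequences not held within a longer one, neither called. In the normalized table it was 1.83-fold for novel_17548_x117 and 1.88-fold for novel_7754_x246, neither called. In the family of novel_10482_x185 the leading member was even between tGCI26h and Sham, with a ratio of 0.940 (0.721 to 1.23), and the rise lay in members that start upstream. Of these novel_7068_x268, chosen after its values were seen, was not listed in Sham and was counted 176 times in tGCI26h, 72 in HPC0h, with 40 in IgG. In the family of novel_7754_x246 the measured members split, with 4 higher and 3 lower. Among the higher was the leading member, counted 20, 236, 390 and 306 times and 8.44-fold higher in tGCI26h relative to Sham (5.34 to 14.1). The families of novel_11687_x168 and novel_7935_x242 were higher in HPC0h than in Sham, by 2.02-fold (1.63 to 2.52) and 2.17-fold (1.23 to 4.17), and the latter was also 2.64-fold higher in tGCI26h relative to Sham (1.41 to 5.32). For novel_7935_x242 that ratio was 1.01 with only sequences not held within a longer one and 1.94 in the normalized table, neither called, and its HPC0h over Sham ratio fell to 1.63 and 1.28. For novel_11687_x168 the normalized table gave 1.64, not called. Those of novel_20428_x105 and novel_18167_x114 were called in neither direction between the 3 libraries other than IgG.

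The family of novel_20976_x102 was a single-base variant of the 28S 5' end. Its leading member differs from the listed sequence novel_61_x20743 by T20C, counted from base 1 at the 5' end of both, and is otherwise identical over 38 bases. That difference leaves no shared stretch of 20 bases, which is why the variant formed its own family. It was counted 68, 110, 641 and 496 times, beside 8698, 12018, 59985 and 50851 times for the sequence with T. For 8 members a listed counterpart with T had the same ends. Over these the variant held 0.872% of the counts in Sham (0.742 to 1.02), against 1.07% in tGCI26h (0.937 to 1.21), 1.20% in HPC0h (1.14 to 1.27), with 1.09% in IgG (1.03 to 1.16). Of the 10 members of the family only 2 lie within no longer one, so these counts may repeat reads and the intervals are too narrow. The members novel_2659_x683 and novel_5457_x342 were left out, as the nearest listed sequence of each had A at base 20. Whether they have a counterpart with T was not checked. These pooled shares were carried by the abundant pairs. Over the 4 libraries together, 4 pairs with 97.2% of the counts had shares of 0.900% to 1.74%, and the other 4 pairs had 4.71% to 37.6%. The source of the variant was not tested. The family was called in none of the 6 comparisons.

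The 6 families with no name held 1991 CPM in Sham, 6552 in tGCI26h, 1858 in HPC0h, with 3225 in IgG. Their origin in the rat was not checked, and no sequence of them is shown. The family of novel_18422_x113 was high in tGCI26h, with 1294 CPM in Sham, 3892 in tGCI26h, 319 in HPC0h, with 172 in IgG over 7 members. Its leading 39 nt member was counted 37, 520, 4 and 8 times and was 195-fold higher in tGCI26h relative to IgG (98.4 to 455) and 10.1-fold higher than in Sham (7.20 to 14.4). The 30 nt member novel_12584_x157 was counted 56, 41, 89 and 28 times, with a ratio of tGCI26h over Sham of 0.524 (0.341 to 0.798). That ratio was not called. The members of the family carried different bases at 8 positions.

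The family of novel_19185_x109 was almost confined to IgG. Its 11 members summed to 11 counts in tGCI26h, 8 in HPC0h, with 1244 in IgG, and none was listed in Sham. Its leading member was counted 483 times in IgG and was not listed elsewhere. From the 1030 IgG counts of its sequences not held within a longer one, it was at least 81.7-fold lower in Sham relative to IgG against the floor of 3 counts (exact 95% limit 66.4). The sum was 37.6-fold lower in tGCI26h (20.95 to 75.6) and as much as 193-fold lower in HPC0h (97.7 to 448). The family of novel_704_x2177 was also lower than IgG in each of the other libraries but had 6 counts of its leading member in IgG, 2 in HPC0h and none elsewhere. With only sequences not held within a longer one, it was called in no comparison. With novel_2514_x722 from 28S rRNA, these were the only 3 of the 46 families called lower than IgG in Sham, tGCI26h and HPC0h. How many families of the whole table were so called was not counted.

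The family of novel_5644_x331 was nearly missing from Sham, with 25.1 CPM against 593 in tGCI26h, 435 in HPC0h, with 196 in IgG. Its leading member was not listed in Sham and was counted 112 times in tGCI26h, 79 in HPC0h, with 85 in IgG. Its neighbour novel_5587_x335 was counted 2, 10, 155 and 19 times, so that the leading one was highest in tGCI26h and the neighbour in HPC0h. The family of novel_20350_x105 was 4.73-fold higher in tGCI26h relative to Sham (3.56 to 6.38), with leading counts of 46, 286, 603 and 351. The family of novel_4594_x406 was called in none of the 6 comparisons.

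The 46 families shared some features that the joining rule did not use. The median length of a member was 36 nt, as for the other 2544 sequences named novel_, and the median GC content was 57.9% against 54.1%. Members that began with T, the usual first base of a primary piRNA, were 105 of 459 and held between 19.5% and 21.8% of the members' counts in the 4 libraries. Members with A at base 10, a mark of secondary piRNAs, were 103 of 459. Among those others these shares were 23.4% for a first T and 24.7% for A at base 10, against 22.9% and 22.4% among the members. By counts the groups differed more. A at base 10 held 12.9% to 19.4% of the members' counts and 37.3% to 49.1% of the others', and a first T held 15.8% to 31.0% of the others'. The others include the 28S 5' end family of novel_88_x12235, without which the HPC0h total falls from 830634 to 390939 counts. Its sequence novel_61_x20743, counted 59985 times in HPC0h, has A at base 10. How much of the others' share this family gave was not computed. None of the 459 members shared 20 bases with any of 419 RefSeq rat miRNA hairpins.

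Between the 3 libraries other than IgG, 8 families peaked in tGCI26h, being called against Sham and against HPC0h, and no family had its low point there in the same sense. The tGCI26h library enters both comparisons, so a high value there alone gives this pattern. How many families of the whole table show it was not counted. Among all measured families, 28.4% were higher and 13.0% lower in tGCI26h over Sham. In HPC0h over tGCI26h 11.1% were higher and 40.0% lower, so the table as a whole leaned the same way. None of the 8 kept both calls under every setting tried, the minimum of 50 counts left aside: 5 lost one when the 28S 5' end family left the totals, 5 with TMM factors and 5 with only sequences not held within a longer one. For novel_19185_x109 the call in HPC0h rests on 11 against 8 counts. Of the 8, 1 was mitochondrial tRNA-Gln, 4 were from 28S rRNA and 3 had no name. Families at or near 0 in Sham included 4 that were called higher in tGCI26h, those of novel_19185_x109, novel_18151_x114, novel_5644_x331 and novel_8551_x225. In that shallowest library 202 members were not listed, and 119 of them have a value in the authors' normalized table, so an unlisted value is not a measured absence. Elsewhere 140 members were not listed in tGCI26h, 52 in HPC0h and 62 in IgG, of which 95, 38 and 49 have such a value.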

How the data were processed

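The first deposited table gives raw tag counts for each sequence, per the file headers, and all ratios used them. The second deposited table holds whole-number values that the authors normalized by an unstated step, per the file headers, and these were treated as a score and served only as an alternative. Per the submitters' processing notes, cutadapt 1.9.3 and Novoalign 3.02.12 were used, with no role given. The sources used here do not give a genome build. For this work 40 lines of the raw and 46 lines of the normalized table had been emptied, and 0 columns of values were left unused. An unlisted value was taken as 0.

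Families were joined and counted in Python 3.11.15 (pandas 2.3.3, numpy 2.4.6, scipy 1.17.1). The TMM factors of 1 alternative came from edgeR 4.0.16 in R 4.3.3, and no model was fitted. Depth was the sum of listed counts. PCR copies are not independent molecules, so intervals and floors cover counting error only. Named families are the 10 with the most counts and, per comparison, the 4 highest and the 4 lowest that were called; other families and members were added after their values were seen. The members, lists and names were chosen with earlier results of these data known. Joining, ratios and calls were tested on simulated data. Alternatives were other scalings, count minimums, a pseudocount, a longer joining stretch, the normalized table, leaving out or keeping only the leading sequence and, added after the data were seen, summing members with equal counts once and using only sequences not held within a longer one. Sequences of miRNA hairpins and promoters were credited to RefSeq (GRCr8).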

Additional observations from a re-analysis of the deposited data

Results flagged for a closer look

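Some sequences that belong to the 28S families by their 20-base stretches are listed in the authors' normalized table alone and so enter no comparison above. Of these, novel_11598_x169 and novel_12266_x161, which join the family of novel_11687_x168, have a normalized value of 17 each in Sham and 16 each in tGCI26h, above the 5 each in IgG. The sequence novel_4668_x399, which joins the family of novel_18167_x114, has a normalized value of 16 in Sham and 1 in IgG. In all, 762 sequences are listed in the normalized table alone, and 72 of them join 27 of the 46 families. Why they have no raw count was not tested.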

How the results depend on the processing

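No paired analysis was possible because each group had 1 library. Of 1747 recomputed log2 ratios of the named families, 1396 stayed within the interval of the reported value and 350 moved outside it. Turns of sign were counted only for called ratios, and 1 turned: for novel_5644_x331 in HPC0h over IgG the leading sequence alone gave -0.42. Any turn of an uncalled ratio is among the 1396 or the 350. A minimum of 50 counts (140 of 140) and no minimum (149 of 149) leave a ratio unchanged, so these stayed by design. The other settings ranged from 54 of 136 with the leading sequence alone to 149 of 149 with a pseudocount. Numbers of called families stayed within 1.5 times in 134 of 144 settings, and numbers of called sequences in 53 of 72. Numbers of calls hide which families were called: in tGCI26h over Sham, HPC0h over tGCI26h, HPC0h over Sham, Sham over IgG, tGCI26h over IgG and HPC0h over IgG, 8 of 19, 5 of 19, 8 of 18, 8 of 17, 8 of 18 and 3 of 10 called families kept the call under every setting tried, the minimum of 50 counts left aside. For the families, the authors' normalized table gave 2 lower in tGCI26h over Sham, 2 higher in HPC0h over tGCI26h, 5 higher in HPC0h over Sham and 5 lower in Sham over IgG. Without the leading sequence 7 were lower in tGCI26h over Sham, and with it alone 3 were higher and 7 lower in HPC0h over IgG. Totals without the 28S 5' end family gave 9 higher and 6 lower in HPC0h over tGCI26h and 15 higher in HPC0h over Sham.

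For the member sequences, a minimum of 50 counts gave 26 higher and 7 lower in tGCI26h over Sham, 24 and 36 in HPC0h over tGCI26h, 30 lower in HPC0h over Sham, 17 higher in Sham over IgG, 28 and 27 in tGCI26h over IgG, and 19 and 32 in HPC0h over IgG, since fewer sequences were then measured. A pseudocount of 5 counts gave 26 higher in HPC0h over tGCI26h, 34 higher in HPC0h over Sham, 41 lower in Sham over IgG and 26 lower in tGCI26h over IgG. Totals without the 28S 5' end family gave 77 higher and 48 lower in HPC0h over tGCI26h, 43 lower in HPC0h over Sham, 78 lower in tGCI26h over IgG and 78 higher in HPC0h over IgG. The families' share of counts in Sham, tGCI26h, HPC0h and IgG was 4.96%, 5.95%, 3.97% and 4.81% with only sequences not held within a longer one, 6.06%, 7.04%, 4.29% and 5.34% in the normalized table, and 7.83%, 9.18%, 8.22% and 8.32% when the 28S 5' end family left the totals. The causes of these moves, where the setting itself does not give them, were not tested. Depth limits Sham most, where the minimum of 10 counts is a larger share of the library than elsewhere.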
